A study of Oryctolagus cuniculus with 16 samples.

Results

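The genes described here are the cytokines of the interleukin-6 family with their receptors, the transcription factor *STAT3* and its feedback inhibitor *SOCS3*, measured in the femoral heads of rabbits. The members were chosen by name, as *IL6*, *IL6R*, *IL6ST*, *LIF*, *LIFR*, *IL11*, *OSM*, *OSMR*, *STAT3* and *SOCS3*, and 9 of these 10 symbols are found among the 20255 genes of the count table. No gene of the table carries the symbol *IL11*, which was not analysed here. The disease group held 5 rabbits in which a model of Perthes disease, the avascular necrosis of the growing femoral head, had been produced by surgery at an age of 8 weeks. The operation interrupted the arterial supply of the head by ligation at its neck together with division of the ligament that joins it to the socket. The control group held 3 wild-type rabbits. The labels give the disease as a genotype, but the methods describe it as the result of the operation. The time between surgery and sampling, the age of the controls, and whether they were operated on are not given in the sources used here. Each rabbit gave 1 total RNA library of femoral head tissue, and markers of blood-forming, bone and cartilage cells were all detected in it.

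Cytokines of this family signal through receptor complexes that share the subunit gp130, encoded by *IL6ST*. *IL6*, *LIF* and *OSM* are the ligands, and *IL6R*, *LIFR* and *OSMR* encode receptor subunits that join them and gp130 in these complexes. The activated complex turns on JAK kinases that phosphorylate *STAT3*, and *STAT3* induces *SOCS3*, which binds to gp130 and the kinases and shuts the signal off. In bone, gp130 cytokines act on osteoblasts, osteocytes, chondrocytes and marrow stromal cells, and they raise the production of RANKL, the cytokine that osteoclasts need.

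The libraries held between 26757087 and 29461482 expected counts, which were rounded to whole counts and scaled to CPM (library-scaled counts) with the TMM factors of edgeR. A level of 1 CPM corresponded to between 26.7 and 30.1 counts. *IL6* had at most 3 counts in a control library, and the other 8 genes had at least 29 counts in every library. The low-count filter kept 15305 genes, and differences between the groups were tested on all of them with the quasi-likelihood test of edgeR. A gene was called when its Benjamini-Hochberg adjusted p over these genes was below 0.05. CPM values were compared between rabbits and not between genes, since gene lengths were not used. The tissue is a mixture, and fewer cells of a type and less RNA per cell cannot be told apart in it.

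Among the ligands and the feedback inhibitor, *IL6*, *LIF* and *SOCS3* were higher in each of the 5 Perthes rabbits than in any of the 3 controls, while *OSM*, all 4 receptor genes and *STAT3* had groups that overlapped. The differences of *IL6* and *LIF* were largely those of Perthes rabbit 4, which stood far above the other Perthes rabbits. Of the 9 genes, 8 passed the low-count filter and *IL6* did not. By edgeR's quasi-likelihood test, 0 of the 8 were called higher and 0 were called lower, whereas 6.21% of all genes tested were called higher in Perthes rabbits and 8.86% lower. Those shares stand for 951 and 1356 genes, which became 678 and 1705 when libraries were scaled by their totals alone. At an unadjusted p below 0.05 there were 3 of the 8, namely *LIF*, *SOCS3* and *IL6R*, against 31.9% of all genes tested, so this count is near the background. DESeq2 called 1 member, *SOCS3*, with a log2 fold change of 1.097 and an adjusted p of 0.0412. That was 1 of the 7 members for which it gave an adjusted p, while of all genes it called 9.74% higher and 11% lower, so this share too is near the background. The median log2 fold change of the 8 genes was 0.15, and that of all genes tested was 0.025. Groups that did not overlap, with Perthes rabbits higher, were found in 2 of the 8 genes and in 11.2% of all genes tested. The reverse, with Perthes rabbits lower, was found in 0 of the 8 and in 13.9% of all genes tested. 

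**Figure D1:**
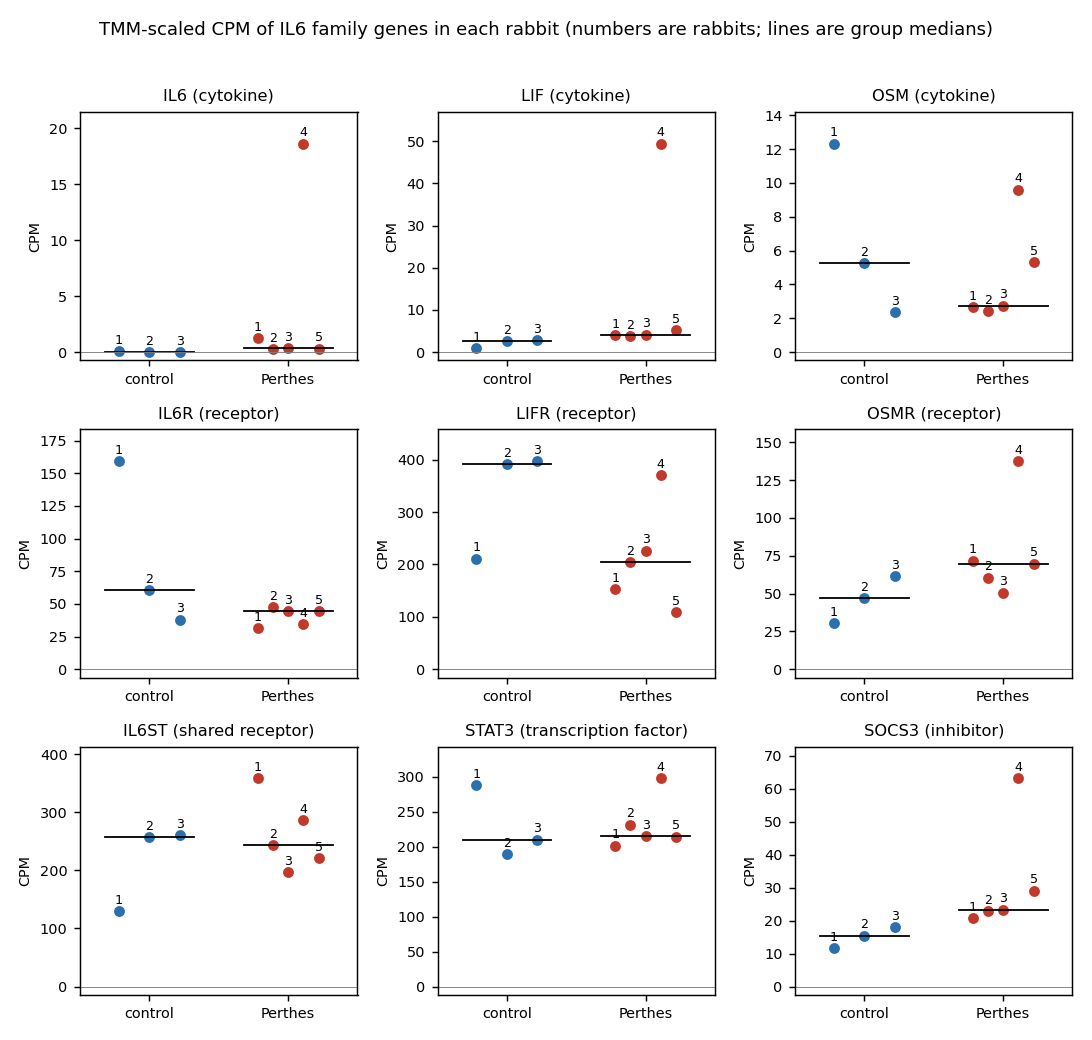
TMM-scaled CPM (vertical axis) of the 9 genes in each control rabbit (blue) and each Perthes rabbit (red), with the rabbit's number above its point and a line at the group median. Perthes rabbit 4 was the highest Perthes rabbit in 7 of the 9 genes, and control rabbit 1 was the highest of all rabbits for *IL6R* and *OSM*.

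*IL6* encodes the interleukin that gives the family its name, a product of macrophages, stromal cells and chondrocytes. Perthes rabbits 1 to 5 had 1.28, 0.262, 0.367, 18.6 and 0.306 CPM of *IL6*, from 38, 7, 10, 512 and 9 counts. Controls 1 to 3 had 0.107, 0 and 0.0333 CPM, from 3, 0 and 1 counts. The 0 counts of control rabbit 2 allow a level of up to 0.106 CPM, counting error only. Every Perthes rabbit was above every control, yet rabbit 4 held 88.9% of the counts of its group and lay 55.3-fold above the median of the other 4. For Perthes rabbits 2, 3 and 5 the separation from control rabbit 1 rested on these few counts. Against a floor of 3 counts in each control library, the mean of the Perthes rabbits was at least 39.99-fold higher, and without rabbit 4 it was at least 5.32-fold higher. The fit without the low-count filter gave a log2 fold change of 6.36 (standard error 2.06, 95% interval 1.77 to 10.94, adjusted p = 0.0784 from edgeR), a value that depends on the prior count because the controls were near 0. Leaving out rabbit 4 in that fit lowered the difference to 3.47 (standard error 0.96), and *IL6* was then called with an adjusted p of 0.0472 from edgeR. Over the 8 fits that each leave out 1 rabbit, the adjusted p ran from 0.0472 to 0.225. A two-sided exact permutation test of log2 CPM gave p = 0.0357, the smallest that 5 rabbits against 3 allow. That p follows from the lack of overlap and adds nothing to it. Of all genes tested, 11.2% had groups that did not overlap with Perthes rabbits higher, and 13.9% with Perthes rabbits lower.

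*LIF*, leukemia inhibitory factor, acts on osteoblasts, chondrocytes and marrow stromal cells through *LIFR* and gp130. It reached 4.09, 3.78, 4.15, 49.4 and 5.24 CPM in Perthes rabbits 1 to 5. In controls 1 to 3 it reached 1.04, 2.68 and 2.93 CPM. The groups did not overlap, although the gap between them was small beside the distance of rabbit 4 from all others. The 5 Perthes rabbits averaged 13.3 ± 20.2 CPM (± SD) and the 3 controls 2.21 ± 1.03 CPM, and the edgeR estimate of the log2 difference was 2.59 ± 1.06 (SE), with a 95% interval of 0.20 to 4.98 and an adjusted p of 0.129. Without rabbit 4 the Perthes mean was 4.31 ± 0.638 CPM (SD, n = 4), and edgeR put the log2 difference at 0.96 ± 0.37 (SE). The adjusted p of edgeR ran from 0.101 to 0.313 with 1 rabbit left out at a time.

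*OSM*, oncostatin M, is made by macrophages, neutrophils and T cells and signals through *OSMR* or *LIFR*. Its levels were 2.67, 2.43, 2.75, 9.60 and 5.31 CPM in Perthes rabbits 1 to 5. The controls were spread more widely, with 12.3, 5.25 and 2.36 CPM in rabbits 1 to 3. Control rabbit 1 was thus the highest and control rabbit 3 the lowest of all 8 rabbits. The edgeR estimate of the log2 difference was -0.54 ± 0.60 (SE), with a 95% interval of -1.89 to 0.81 and an adjusted p of 0.563. It turned to 0.26 (standard error 0.62) when control rabbit 1 was left out, so no direction can be given for *OSM*.

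*IL6R*, the receptor subunit that binds interleukin-6, is found on hepatocytes and on leukocytes such as monocytes and neutrophils. Perthes rabbits 1 to 5 had 31.7, 47.7, 44.6, 34.4 and 44.5 CPM of *IL6R*. The controls had 159.6, 60.6 and 38.0 CPM. The Perthes rabbits lay close together, and control rabbit 3 fell among them while control rabbit 1 lay far above the rest. The edgeR estimate of the log2 difference was -1.09 ± 0.40 (SE), with a 95% interval of -1.98 to -0.19 and an adjusted p of 0.0952. It was -0.28 (standard error 0.24) without control rabbit 1. Without control rabbit 3 it was -1.44 (standard error 0.33), and *IL6R* was then called lower with an adjusted p of 0.0330 from edgeR. With each rabbit left out in turn that p ranged up to 0.505.

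Neutrophil marker sums were lower in every Perthes rabbit than in any control. Mean *IL6R* and mean *OSM* were also lower in Perthes rabbits, although no direction could be given for *OSM*. Of the 10 neutrophil markers listed, 8 are in the table. Of these, 4 were called lower in Perthes rabbits and 0 higher, where 8.86% and 6.21% of all genes tested were. Their summed level ran from 28.2 to 1810 CPM in Perthes rabbits and from 6770 to 22406 CPM in controls, and no listed marker was at 0 in every library of a group. The highest sum was that of control rabbit 1, the rabbit with the most *IL6R* and *OSM*, and the lowest was that of Perthes rabbit 1, which had the least *IL6R*. The other Perthes rabbits did not keep to one order, since rabbit 4 had a sum of 1750 CPM with 34.4 CPM of *IL6R* and rabbit 5 a sum of 194 CPM with 44.5 CPM. Nor did *OSM* keep to the order of the sums. Control rabbit 3, with a sum of 6770 CPM, had the least *OSM* of all rabbits, at 2.36 CPM. Perthes rabbit 2, with the highest sum of its group, had the least *OSM* of that group, at 2.43 CPM. The part of these markers in the levels of *IL6R* and *OSM* was not tested.

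*LIFR* encodes the subunit shared by *LIF*, *OSM* and other ligands. Its levels were 153.0, 205.2, 226.6, 370.5 and 108.4 CPM in Perthes rabbits 1 to 5. In the controls they were 211.0, 391.4 and 397.9 CPM. Control rabbit 1 lay among the Perthes rabbits, and Perthes rabbit 4 lay close to the other controls. The 5 Perthes rabbits averaged 212.8 ± 99.5 CPM (± SD) and the 3 controls 333.4 ± 106.0 CPM. The edgeR estimate of the log2 difference was -0.65 ± 0.38 (SE), with a 95% interval of -1.51 to 0.21 and an adjusted p of 0.275. Without Perthes rabbit 4 it was -0.94 (standard error 0.32).

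*OSMR*, a receptor subunit for oncostatin M, is a product of stromal and bone-lining cells. It had 71.8, 60.6, 50.6, 137.7 and 69.8 CPM in Perthes rabbits 1 to 5. The controls had 30.4, 47.0 and 61.6 CPM. Only Perthes rabbits 2 and 3 fell below the highest control. The edgeR estimate of the log2 difference was 0.75 ± 0.36 (SE), with a 95% interval of -0.052 to 1.56 and an adjusted p of 0.181, and it was 0.45 (standard error 0.25) without Perthes rabbit 4.

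*IL6ST*, the gp130 subunit common to all of these complexes, had 359.5, 244.1, 197.8, 287.4 and 221.7 CPM in Perthes rabbits 1 to 5. In the controls it had 129.4, 257.9 and 261.6 CPM. The groups overlapped broadly, with control rabbit 1 alone below every Perthes rabbit. The edgeR estimate of the log2 difference was 0.28 ± 0.29 (SE), with a 95% interval of -0.37 to 0.93 and an adjusted p of 0.539, and without control rabbit 1 it was 0.015 (standard error 0.25).

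The rabbit genes for *LIF* and *OSM* are neighbours, and so are those for *LIFR* and *OSMR*, with 0 protein-coding genes between the partners in the RefSeq annotation of the assembly mOryCun1.1, to which all 9 genes were matched by gene ID. Neighbours shared an order of rabbits within 1 group but not across both. *LIF* and *OSM* had the same order among the Perthes rabbits, falling from rabbit 4 through 5, 3 and 1 to 2. Among the controls, *LIF* was lowest and *OSM* highest in rabbit 1. *LIFR* and *OSMR* had the same order among the controls, with rabbit 3 highest and rabbit 1 lowest, and different orders among the Perthes rabbits. *LIFR* had a lower mean in Perthes rabbits than in controls, and *OSMR* a higher one.

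*STAT3* encodes the transcription factor on which these receptors converge. It had 201.3, 231.4, 214.6, 298.1 and 214.3 CPM in Perthes rabbits 1 to 5, against 287.6, 189.5 and 209.9 CPM in the controls. Perthes rabbit 4 and control rabbit 1 were the highest, and the other 6 rabbits lay within a narrow band. The 5 Perthes rabbits averaged 232.0 ± 38.5 CPM (± SD) and the 3 controls 229.0 ± 51.8 CPM, and the edgeR estimate of the log2 difference was 0.018 ± 0.21 (SE), with a 95% interval of -0.45 to 0.48 and an adjusted p of 0.959. These counts measure the mRNA and not the phosphorylated protein that carries the signal.

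*SOCS3* is induced by *STAT3* and dampens signalling through gp130. Its levels were 20.7, 23.0, 23.4, 63.3 and 29.1 CPM in Perthes rabbits 1 to 5. The controls were all lower, with 11.6, 15.5 and 17.9 CPM. The 5 Perthes rabbits averaged 31.9 ± 17.8 CPM (± SD) and the 3 controls 15.01 ± 3.18 CPM, and the edgeR estimate of the log2 difference was 1.09 ± 0.39 (SE), with a 95% interval of 0.20 to 1.97 and an adjusted p of 0.0923. Without rabbit 4 the remaining Perthes rabbits averaged 24.0 ± 3.57 CPM (SD, n = 4), and edgeR put the log2 difference at 0.68 ± 0.20 (SE). The adjusted p of edgeR lay between 0.0551 and 0.255 when any 1 rabbit was left out. 

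**Figure D2:**
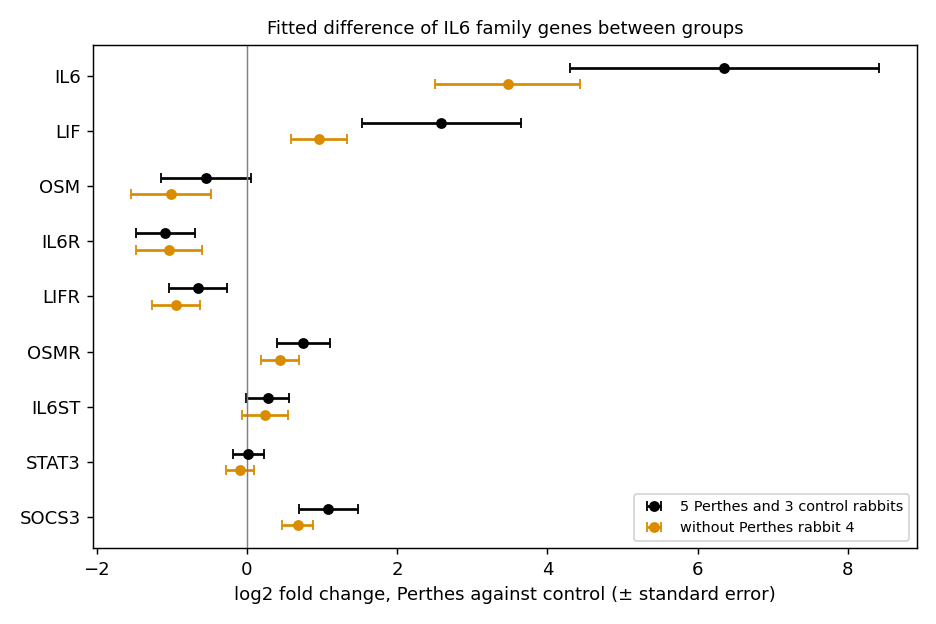
Log2 fold change of Perthes against control rabbits (horizontal axis, bars are ± 1 standard error) for the 9 genes, with all 8 rabbits (black) and without Perthes rabbit 4 (orange), *IL6* being from the fit without the low-count filter. Leaving out rabbit 4 took *IL6* from 6.36 to 3.47 and *LIF* from 2.59 to 0.96.

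Perthes rabbit 4 was the highest of the 5 Perthes rabbits in 6 of the 8 genes tested and also in *IL6*, whereas it was the highest in 21.8% of all genes tested. Its excess over the median of the other 4 was 55.3-fold for *IL6*, 12.0-fold for *LIF*, 3.54-fold for *OSM*, 2.73-fold for *SOCS3*, 2.11-fold for *OSMR* and 2.07-fold for *LIFR*. Those 6 genes had log2 CPM in rabbit 4 more than 1 above that median, as had 7.91% of all genes tested. *STAT3*, at 1.39-fold, and *IL6ST*, at 1.23-fold, were nearer to the other rabbits, and *IL6R*, at 0.772-fold, was below them. The ligands and *SOCS3* thus stood further above the other Perthes rabbits than the receptors and *STAT3* did. This is a description of 1 animal, for which the labels give no separate treatment or batch.

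In the same rabbit the macrophage, osteoclast and adipocyte markers had the lowest sums of the Perthes group, at 461, 1548 and 129 CPM, and the chondrocyte and osteoblast markers had the highest, at 145707 and 3048 CPM. Over the other Perthes rabbits the chondrocyte sum ran from 35663 to 79629 CPM and the macrophage sum from 934 to 1572 CPM. In the controls the chondrocyte sum ran from 46917 to 67206 CPM and the macrophage sum from 481 to 630 CPM. Most of the chondrocyte sum was *COL2A1*, which averaged 60440 CPM in Perthes rabbits and 47800 CPM in controls. All 7 chondrocyte markers and 7 of the 10 macrophage markers are in the table, none of them at 0 in every library of a group. What these mixtures contributed to *IL6*, *LIF* and *SOCS3* in rabbit 4 was not tested.

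The pattern across the 8 rabbits that was most like that of *IL6* belonged to *NOS2*, the inducible nitric oxide synthase. Likeness was the root mean square difference of log2 CPM after centring each gene on its mean, and it was 0.99 for *NOS2*. Others were *TNFSF8* at 1.09, the arginase gene *ARG2* at 1.21 and *GALNT15* at 1.23. In Perthes rabbit 4, *NOS2* had 66.0 CPM, or 21.0-fold the median of the other Perthes rabbits. Adjusted p-values of these 4 genes ran from 0.0522 to 0.139 in edgeR's test. For *SOCS3* the closest genes were *TEAD4* at 0.17, *BNIP3* at 0.18, *KREMEN1* at 0.19, *LRRC49* at 0.19 and *RGMA* at 0.21. *BNIP3*, a mitophagy receptor known to be induced by low oxygen, had 74.7, 66.8, 73.9, 171.5 and 103.9 CPM in Perthes rabbits 1 to 5. Its controls had 45.2, 43.1 and 58.6 CPM. These genes were picked for likeness, which has no test and includes the difference between the groups.

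The remaining genes of the pathway were counted in 9 lists that hold 105 genes, of which 87 are in the table and 83 were tested. In edgeR's test 5 of the 83 were called higher and 8 lower, close to the 6.21% and 8.86% of all genes tested, and the median log2 fold change was 0.18. The counts turned on single rabbits, as did those over all genes, which ran from 0 to 1267 higher and from 0 to 1628 lower with 1 rabbit left out. Without Perthes rabbits 3, 4 and 5 in turn, 2, 9 and 3 were called higher, and without control rabbits 1, 2 and 3, 3, 0 and 3 were. Those called lower numbered 3 without Perthes rabbit 3 and likewise 3 without Perthes rabbit 5. Without control rabbits 1, 2 and 3 they numbered 0, 0 and 5.

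**Figure D3:**
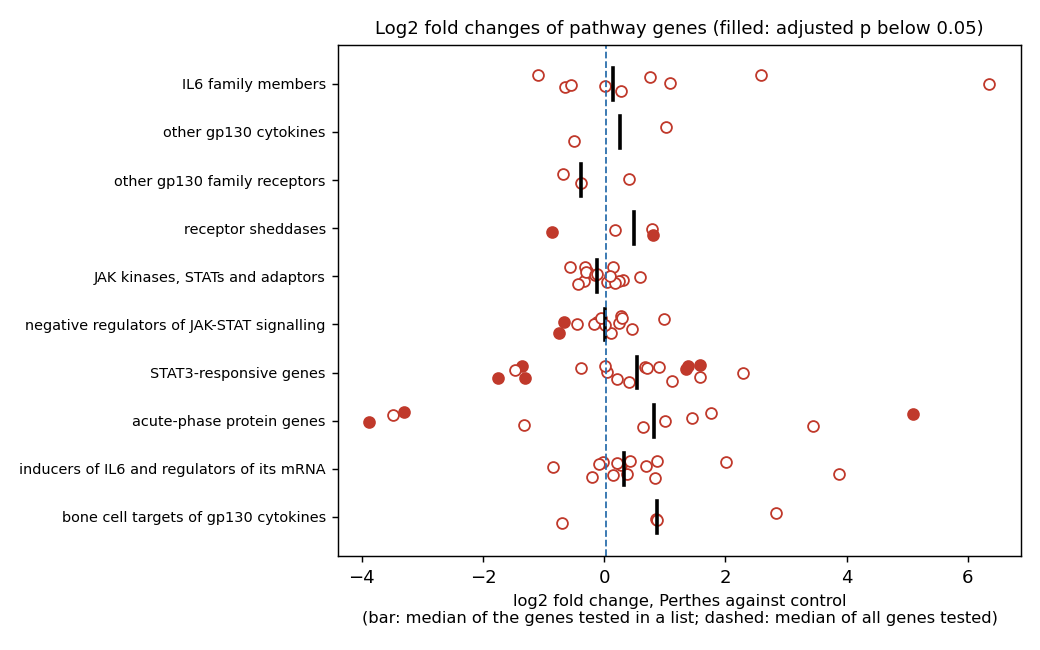
Log2 fold change of Perthes against control rabbits (horizontal axis) for each gene of the family and of 9 pathway lists, filled where the adjusted p of edgeR was below 0.05; bars are medians of the genes tested in a list and the dashed line is the median of all genes tested, 0.025. No family member is filled, and the filled genes lie on both sides of 0 in the sheddase, STAT3-responsive and acute-phase lists.

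Ligands and receptors beyond the named members were sparse. Of the other gp130 cytokines 3 of 7 are in the table and 2 were tested, and of the other gp130 family receptors 3 of 4 were tested, with 0 called in either list. *CLCF1*, a ligand that acts through *CNTFR* and *LIFR*, had 1.25, 1.95, 1.80, 10.3 and 3.71 CPM in Perthes rabbits 1 to 5 and 1.04, 1.76 and 2.79 CPM in controls. It was named after its values were seen, and rabbit 4 was again the highest. In the list of receptor sheddases, the proteins behind the release of soluble receptors, 1 of 4 genes was called in each direction. The shares over all genes tested were 6.21% higher and 8.86% lower. *ADAM10*, a protease that cleaves *IL6R* from the cell surface, fell to 100.8 ± 19.7 CPM (± SD, 5 rabbits), against 183.1 ± 28.5 CPM in the 3 controls, with -0.86 ± 0.20 (SE) as the edgeR log2 difference and 0.0228 as its adjusted p. *RHBDF1*, a partner of the related protease *ADAM17*, rose from 16.5 ± 2.32 to 28.9 ± 5.92 CPM, with 0.81 ± 0.21 (SE) as the edgeR log2 difference and 0.0353 as its adjusted p. The groups did not overlap for either gene.

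Of the JAK kinases, STATs and adaptors, 15 of 17 were tested and 0 were called. Their log2 fold changes had a median of -0.12. Of 13 negative regulators of JAK-STAT signalling, 0 were called higher and 2 lower, where 6.21% and 8.86% of all genes tested were. *CISH*, a target and inhibitor of STAT5 signalling, was at 9.83, 12.2, 10.4, 9.79 and 10.1 CPM in Perthes rabbits 1 to 5 and at 17.3, 18.7 and 16.6 CPM in controls. By edgeR the log2 difference was -0.74 ± 0.15 (SE), at an adjusted p of 0.0159. *PIAS1*, a member of the PIAS family of STAT inhibitors, fell by 0.66 on the log2 scale (standard error 0.17, adjusted p = 0.0345 from edgeR). *SOCS1*, a related inhibitor of JAK kinases, was not called. Its level was 2.41 CPM on average in Perthes rabbits and 1.22 CPM in controls (adjusted p = 0.209 from edgeR), with rabbit 4 again highest at 4.77 CPM. *SOCS1* too was named after its values were seen.

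Genes known to respond to *STAT3* were called in both directions. Of 20 such genes 18 were tested, and 3 were called higher and 3 lower, where 6.21% and 8.86% of all genes tested were, with a median log2 fold change of 0.55. *ICAM1*, a leukocyte adhesion molecule, rose to 73.1 ± 11.4 CPM (± SD, 5 rabbits), against 24.6 ± 1.95 CPM in the 3 controls, with 1.57 ± 0.18 (SE) as the edgeR log2 difference and 0.0118 as its adjusted p. *HIF1A* and *CEBPB*, transcription factors of the hypoxic and inflammatory responses, rose by 1.38 and 1.35 on the log2 scale (adjusted p = 0.0455 and 0.0202 from edgeR). Osteoclast marker sums were also higher in every Perthes rabbit than in any control, whereas macrophage marker sums overlapped between the groups. All 7 osteoclast markers are in the table, 2 were called higher and 0 lower, and their sum ran from 1548 to 4391 CPM in Perthes rabbits and from 730 to 1277 CPM in controls. Of the 7 macrophage markers in the table, 4 were called higher and 1 lower, and their sum ran from 461 to 1572 CPM and from 481 to 630 CPM. Within the Perthes group no single order was kept. Rabbit 4 had the lowest sums of both types and the most *ICAM1*, at 84.3 CPM. Rabbit 1 had the highest macrophage sum, the least *ICAM1*, at 54.4 CPM, and the most *HIF1A*, at 543.7 CPM. Rabbit 5 had the highest osteoclast sum and the most *CEBPB*, at 42.6 CPM. No listed marker of either type was at 0 in a whole group, and the part of these markers in *ICAM1*, *HIF1A* and *CEBPB* was not tested. The survival kinase gene *PIM1* fell to 35.3 ± 14.0 CPM (± SD, 5 rabbits), against 119.7 ± 29.2 CPM in the 3 controls, with -1.76 ± 0.32 (SE) as the edgeR log2 difference and 0.0136 as its adjusted p. *IRF1*, an interferon-regulated factor, and *BCL2L1*, an inhibitor of apoptosis, had log2 fold changes of -1.35 and -1.30 (adjusted p = 0.0396 and 0.0134 from edgeR). The erythroid and neutrophil marker sums were also lower in every Perthes rabbit than in any control. The erythroid sum, over 8 of 9 markers with none at 0 in a whole group, ran from 496 to 20194 CPM in Perthes rabbits. In controls it ran from 25882 to 42257 CPM. Most of it was *HBB2*, which averaged 4808 CPM in Perthes rabbits and 28280 CPM in controls. Of the 8 markers, 1 was called lower and 0 higher, where 8.86% and 6.21% of all genes tested were. The part of erythroid and neutrophil markers in *PIM1*, *IRF1* and *BCL2L1* was not tested.

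Acute-phase genes, the classic targets of interleukin-6 in liver, were represented by 11 of 20 names, and 10 were tested. In this list 1 was called higher, 2 were called lower and 7 were not called, with a median log2 fold change of 0.82. Of all genes tested, 6.21% were called higher and 8.86% lower. *SAA3*, the serum amyloid A gene expressed outside the liver, had 172.2, 56.6, 101.3, 923.1 and 272.1 CPM in Perthes rabbits 1 to 5. The controls had 8.93, 3.70 and 14.1 CPM, all far below. By edgeR the log2 difference was 5.09 ± 1.08 (SE), at an adjusted p of 0.0183. *ORM1* and *LCN2*, which are also products of neutrophil precursors, had log2 fold changes of -3.30 and -3.87 (adjusted p = 0.0276 and 0.0385 from edgeR). *LCN2* is itself one of the neutrophil markers whose sums were given above. Within the Perthes group, 8 of the 10 acute-phase genes were highest in rabbit 4, and their median excess there was 2.42 on the log2 scale.

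Inducers of *IL6* and regulators of its mRNA gave 0 called of 14 tested, with a median log2 fold change of 0.33. Of all genes tested, 6.21% were called higher and 8.86% lower, so few calls are to be had in lists of this size. In Perthes rabbit 4, *PTGS2*, the inducible cyclooxygenase gene, was at 297 CPM, 29.5-fold the median of the other 4, and *IL1B*, a cytokine that induces *IL6*, was at 41.4 CPM, 14.7-fold that median. Controls had 3.57 to 7.18 CPM of *PTGS2* and 10.6 to 31.8 CPM of *IL1B*. Both genes were named after their values were seen, and neither was called (adjusted p = 0.103 and 0.595 from edgeR). Rabbit 4 was the highest Perthes rabbit in 8 of the 14 genes of this list, against 21.8% of all genes tested. The list did not move as one in it, since *TNF*, *TLR2*, *TLR4* and *MYD88* had their lowest Perthes level there. *TNF* was at 0.473 CPM, 0.324-fold the median of the other 4. These genes too were named after their values were seen. Among bone cell targets, 0 of 4 were called, beside the same shares over all genes tested. *TNFRSF11B*, the decoy receptor that neutralises RANKL, had 118.1, 29.2, 34.8, 428.5 and 93.4 CPM in Perthes rabbits and 8.22, 22.8 and 28.4 CPM in controls. The groups did not overlap, and edgeR put the log2 difference at 2.83 ± 0.95 (SE), at an adjusted p of 0.0757. *TNFSF11*, which encodes RANKL, averaged 20.2 and 11.1 CPM (adjusted p = 0.384 from edgeR). These 2 were likewise named after their values were seen.

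**Figure D4:**
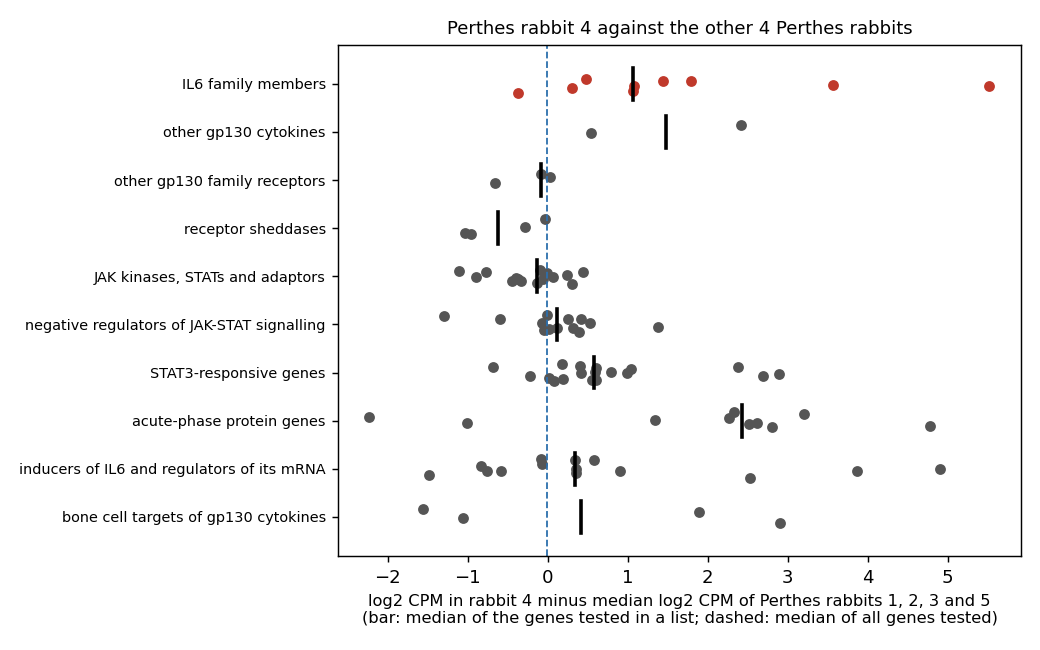
Log2 CPM in Perthes rabbit 4 minus the median of Perthes rabbits 1, 2, 3 and 5 (horizontal axis) for the 9 family members (red) and the genes tested of 9 pathway lists (grey), with the median of each list's tested genes as a bar and that of all genes tested, -0.0075, dashed. *IL6* lay at 5.52 and *LIF* at 3.56, and the acute-phase list had a median of 2.42 while the JAK, STAT and adaptor list had -0.13.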

How the data were processed

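Femoral head RNA of 5 Perthes and 3 control rabbits was sequenced from directional libraries after removal of ribosomal RNA. The authors filtered the reads and aligned them to a rabbit assembly. Their processing notes name HISAT2 2.0.4, RSEM 1.1.17 and HTSeq 1.99.2. They deposited expected counts per gene, estimates that are not normalized and share ambiguous reads among genes, of which 10.0% to 10.7% in a library were not whole. Another 8 columns repeat these values and were not used. The miRNA table was not used here.

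Values were rounded, filtered with filterByExpr, scaled by TMM and tested with edgeR 4.0.16 in R 4.3.3 (glmQLFit, glmQLFTest), with Benjamini-Hochberg adjustment over 15305 genes. Standard errors are the size of the log2 fold change divided by the square root of F, and a prior count of 2 was added for log2 CPM. Counts were also simulated for these 15305 genes, 200 of them with a true log2 fold change of size 3. Of the 200, edgeR called 195 in the right direction, with 8 wrong calls, and DESeq2 called 198, with 40 wrong calls. The simulation gave every gene the same dispersion and held no outlying rabbit. It therefore cannot tell how often smaller changes, such as those of *SOCS3* and *IL6R*, would be missed. The biological coefficient of variation was 0.361. The labels call the samples rabbits. No sequencing batch is named in the labels. The title of control rabbit 3 repeats the number 2, and its code was used.

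The members and gene lists were chosen with earlier results of these data known. The genes named were the members, the called genes of each list (at most the 4 largest changes, with the remaining *CEBPB* and *BCL2L1* added afterwards because few were called), and the 5 genes most like *IL6* and *SOCS3*, except 1 that is not reported here. Alternatives were DESeq2 1.42.0, other scalings and filters, blocking on the replicate number, and leaving out 1 rabbit at a time.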

Additional observations from a re-analysis of the deposited data

Results flagged for a closer look

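The 5 Perthes values of 22 genes were examined (9 members and 13 called genes of the pathway lists). In 8 of the 22, the highest value stood apart from the others by Dixon's criterion. Normally distributed values meet it by chance in about 1 in 20 groups. Here it was applied to CPM without logarithms, which need not be normal, so that rate is only a guide. Genes of 1 animal are not independent of each other. In Perthes rabbit 4 these were *IL6* at 18.6 CPM with the next rabbit at 1.28, *LIF* at 49.4 with the next at 5.24, *OSMR* at 137.7 with the next at 71.8, *SOCS3* at 63.3 with the next at 29.1, and *SAA3* at 923.1 with the next at 272.1. In Perthes rabbit 2 they were *CISH* at 12.2 CPM with the next at 10.4 and *BCL2L1* at 91.4 with the next at 57.0. In Perthes rabbit 1 it was *PIAS1* at 57.5 CPM with the next at 43.2. In the latter 3 genes even the outlying rabbit stayed below every control.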

How the results depend on the processing

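Under 14 alternatives, 114 of the 123 log2 fold changes of members that had a test kept both their direction and their side of the threshold. DESeq2 moved *SOCS3* past the threshold at 1.097, which made 1 member called higher, and it gave no p for *IL6* and *LIF*. It called 17 pathway genes higher and 10 lower, and of all genes it called 1700 higher and 1917 lower where edgeR called 951 and 1356. With library totals alone *STAT3* turned to -0.072, and with the replicate block to -0.064. Within the pairs of equal replicate number, gene by gene departures from the group mean correlated at -0.317, 0.161 and -0.238. Pairs of unequal number were not computed beside them, so these values cannot decide whether the numbers paired the rabbits. With the replicate block 0 and 0 pathway genes were called, as were 0 of all genes tested. *IL6* was 3.71 and *SOCS3* 0.59 with that block, and no call of a member changed with it. Leaving out 1 rabbit at a time gave ranges of 3.47 to 7.60 for *IL6*, -1.44 to -0.28 for *IL6R*, 0.015 to 0.44 for *IL6ST*, 0.96 to 2.84 for *LIF*, -0.94 to -0.47 for *LIFR*, -1.01 to 0.26 for *OSM*, 0.45 to 1.01 for *OSMR*, -0.10 to 0.22 for *STAT3* and 0.68 to 1.23 for *SOCS3*. *STAT3* was below 0 without Perthes rabbit 4 at -0.089, without control rabbit 2 at -0.10 and without control rabbit 3 at -0.041, and *OSM* was above 0 without control rabbit 1 at 0.26. *IL6* without Perthes rabbit 4 and *IL6R* without control rabbit 3 passed the threshold. Among members that passed the low-count filter, which *IL6* did not without Perthes rabbit 4, between 0 and 0 were called higher and between 0 and 1 lower, and pathway genes from 0 to 9 in either direction. Without control rabbit 2, 0 genes of all those tested were called. *IL6* was not tested with at least 10 counts required in every library. Low counts limit *IL6* in the controls and also in Perthes rabbits 2, 3 and 5, which had 7, 10 and 9 counts. The cause of these shifts was not tested.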
